A study of Mus musculus with 20 samples.

Results

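Prostaglandin and leukotriene synthesis genes were followed in hepatic monocyte-derived macrophages (MoMac) of mice with carbon tetrachloride (CCl4) liver injury. The set holds 10 genes chosen by name for their place in the pathway, namely Pla2g4a, Alox5, Alox5ap, Lta4h, Ltc4s, Ptgs1, Ptgs2, Ptges, Tbxas1 and Hpgds. All 10 were found among the 59311 genes of the deposited table, and all 10 were among the 17248 genes tested, which had a mean of at least 10 normalized counts in at least 1 group. C57BL/6 mice (male C57BL/6 J in the study's methods), 10 to 12 weeks old, received CCl4 at 0.6 ml/kg for 4 weeks. Starting 2 h ahead of the last injection, and daily from then on, 5 mice (11 to 15) were given vehicle (1% DMSO) and 5 mice (16 to 20) were given Ac-6-FP at 0.25 mg/kg, an MR1 ligand that keeps mucosal-associated invariant T (MAIT) cells from being activated. The livers were taken 2 days after the last CCl4 dose. From each of the 10 mice, CD11b+ F4/80+ cells lacking Ly6G, CD11c and CD3 were sorted into Ly6Chi and Ly6Clo MoMacs and sequenced, which gave 20 libraries in 4 groups of 5. Every group had received CCl4, so no uninjured liver enters any comparison here. The paired design asks how the Ly6Chi and Ly6Clo subsets of the same liver differ, and the treatment arm asks how blocking MAIT cell activation changes each subset.

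Eicosanoids are short-lived lipid signals made from arachidonic acid. Cytosolic phospholipase A2 (Pla2g4a) frees the acid from membranes, after which 5-lipoxygenase and its partners lead to leukotrienes, and the cyclooxygenases lead to prostaglandins and thromboxane. Macrophages can run both branches, and in injured liver their products are known to act on blood vessels, on recruited leukocytes and on scar-forming cells.

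Values are normalized counts, that is reads on the constitutive exonic parts of a gene divided by a size factor of the library, and they are not divided by gene length, so levels are compared between libraries and not between genes. A call means an adjusted p under 0.05 over all 17248 genes in limma, fitted on log2(normalized count + 1). Log2 differences are on that scale unless edgeR, another added number (pseudocount) or a range over alternative analyses is named. At low values their size depends on the added 1, and a listed 0 beside a moderate count gives a large difference. Ptgs1 in mouse 15, at 474 in Ly6Chi and 0 in Ly6Clo, thus differed by 8.89. The libraries held between 5693049 and 18682437 reads on genes, with a median of 13601180, and a listed 0 leaves room for up to 3 reads by counting error alone. Detection was uneven, with between 5343 and 15766 genes above 0 in a library. The Ly6Clo library of mouse 13 stood apart with the fewest reads and the fewest detected genes, and 2765 of the 6652 genes whose median over all libraries was at least 100 were listed at 0 in it. The sort was visible in the monocyte markers: the Ly6Chi monocyte list summed to between 95312 and 194671 in Ly6Chi libraries and to between 8330 and 30780 in Ly6Clo libraries, without overlap. The Ly6Clo monocyte list (Nr4a1, Treml4, Ace, Spn and Itgal) overlapped, with sums of 3187 to 19949 and 5412 to 41819. Of its genes Treml4 and Ace were called lower in Ly6Chi. Nr4a1 (0.59, adjusted p = 0.325 by limma), Spn (-1.45, adjusted p = 0.577) and Itgal (-1.23, adjusted p = 0.108) were not called. The Kupffer cell list stayed at or under 246 and 808 in the 2 subsets.

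The called members with the largest differences were Ltc4s and Alox5, so the DNA around their start sites is shown for orientation. The stretches run from 250 bases before to 50 bases after the RefSeq start on GRCm38.p6 (mm10), 5′ to 3′ on the gene's own strand, at chr11:50238483-50238782 for Ltc4s and chr6:116461129-116461428 for Alox5, both on the minus strand. Capitals mark matches, on either strand, to the letters GAGGAA (a core read by the myeloid factor PU.1) and GGGCGG (a core read by Sp1).
Ltc4s: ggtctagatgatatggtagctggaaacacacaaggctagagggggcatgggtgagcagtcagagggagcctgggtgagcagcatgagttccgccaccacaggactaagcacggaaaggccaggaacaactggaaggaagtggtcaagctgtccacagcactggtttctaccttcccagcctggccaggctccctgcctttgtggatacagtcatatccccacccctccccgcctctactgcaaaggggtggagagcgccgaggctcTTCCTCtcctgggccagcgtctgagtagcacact
Alox5: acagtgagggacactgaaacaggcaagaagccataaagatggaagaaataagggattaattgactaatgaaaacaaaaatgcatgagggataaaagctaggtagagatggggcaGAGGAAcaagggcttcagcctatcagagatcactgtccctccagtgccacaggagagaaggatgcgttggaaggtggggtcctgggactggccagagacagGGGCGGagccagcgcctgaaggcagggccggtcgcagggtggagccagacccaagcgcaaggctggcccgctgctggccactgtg
In Ltc4s the match was to GAGGAA on the opposite strand, beginning 16 bases after the start. In Alox5, GAGGAA began at position -136 and GGGCGG at position -35. Of the 10 promoters listed for 9 members, GAGGAA occurred in 8, against 28.3% of all 32851 promoters of that length, and GGGCGG in 3, against 35.7%. The other letters searched on both strands were TATAAA (2 promoters, against 13.6%), CCAAT (2, against 37.4%) and TGACGT (1, that of Ptgs2, against 7.51%), and the only overlapping matches were a pair of TATAAA in Tbxas1. A match describes letters in this window and no binding was measured. Alox5ap was without an entry.

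Between the subsets, 3 of the 10 members passed the test, 2 lower in Ly6Chi (Ltc4s and Alox5) and 1 higher (Alox5ap), and all 3 belong to the 5-lipoxygenase branch. Over all tested genes 896 were called (5.19%), of which 593 (3.44%) were lower and 303 (1.76%) higher in Ly6Chi. At an unadjusted p under 0.05 stood 6 of the 10 members, beside 16.7% of all genes. The median log2 difference of the members was -0.41, beside -0.03 over all genes. Without mice 12, 13 and 14, a choice made after seeing the data because each had a library with many listed zeros, the 3 were still called by limma, at -7.42 (Ltc4s, adjusted p = 0.000698), -2.23 (Alox5, adjusted p = 0.0117) and 0.64 (Alox5ap, adjusted p = 0.00572). None of the 5 members of the cyclooxygenase branch (Ptgs1, Ptgs2, Ptges, Tbxas1 and Hpgds) was called, and neither was Pla2g4a. In sorted bulk libraries, fewer cells of a type and less RNA per cell cannot be told apart.

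**Figure D1:**
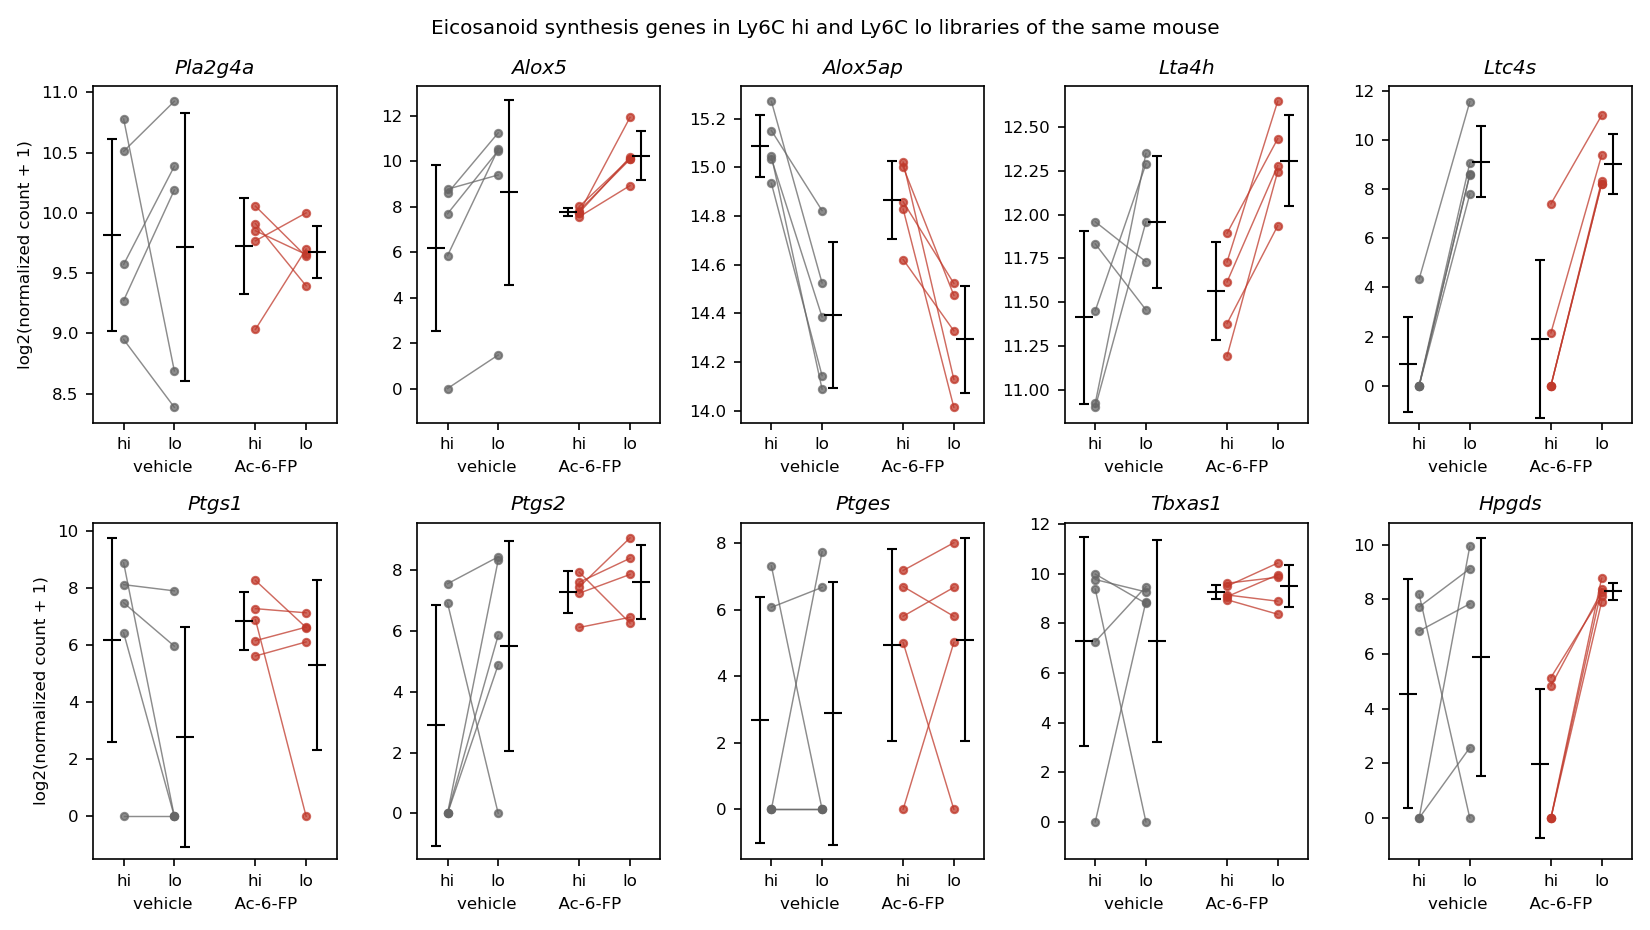
Level of each of the 10 genes (vertical axis, log2 of normalized count + 1, a separate scale for each gene) in Ly6Chi (hi) and Ly6Clo (lo) libraries, with a line joining the libraries of 1 mouse, vehicle in grey and Ac-6-FP in red, and mean with SD (n = 5) in black beside the points. All 10 lines go up in Ltc4s and in Alox5 and all 10 go down in Alox5ap, whereas the cyclooxygenase branch genes have libraries at 0 in several groups.

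Ltc4s (GSMG0006613, chr11:50236462-50238532), leukotriene C4 synthase, joins glutathione to leukotriene A4 and so opens the cysteinyl leukotriene route. In the Ly6Chi libraries of vehicle mice 11 to 15 it was listed at 0, 19.3, 0, 0 and 0 normalized counts, and in those of Ac-6-FP mice 16 to 20 at 0, 0, 168, 3.44 and 0. In Ly6Clo libraries it stood at 222, 3012, 536, 388 and 383 in vehicle mice and at 295, 295, 2049, 663 and 321 in Ac-6-FP mice. Every Ly6Clo library lay above every Ly6Chi library, a separation in this direction that 0.974% of the tested genes had. Mouse 18 held both the highest Ly6Chi value and the second highest Ly6Clo value. In the 7 mice with 0 in Ly6Chi the Ly6Clo level was at least 83.5-fold to at least 203-fold higher (median at least 134-fold, set against 3 reads in the Ly6Chi library), and in the other 3 mice it was 12.2-fold to 193-fold higher. The fitted difference was -7.68 on the log2 scale (SE 0.61, adjusted p = 6e-06 by limma). By the exact permutation test within mice the two-sided p was 0.00195, the smallest that 10 pairs allow. It was called in vehicle mice alone (-8.25, adjusted p = 0.0223 by limma) and in Ac-6-FP mice alone (-7.12, adjusted p = 0.0233). In the GENCODE annotation an antisense gene, Gm26542, overlaps Ltc4s, and since counting by strand is not stated in the sources used here, reads of the pair cannot be told apart. The same holds for Alox5ap (Gm19719 and n-R5s180), Ptgs1 (Gm43621), Hpgds (Gm17147), Pla2g4a (n-R5s219) and Tbxas1 (Hipk2, Gm42962 and 1700025N23Rik).

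Alox5 (GSMG0033569, chr6:116410071-116461178) encodes 5-lipoxygenase, which turns arachidonic acid into leukotriene A4. Its Ly6Chi values were 385, 206, 56.5, 0 and 436 in vehicle mice and 227, 257, 188, 213 and 213 in Ac-6-FP mice. The Ly6Clo values were 2437, 1419, 1488, 1.78 and 674 in vehicle mice and 1085, 1107, 487, 1159 and 3907 in Ac-6-FP mice. All Ly6Clo libraries but that of mouse 14 exceeded every Ly6Chi library, and mouse 14 was nearly without Alox5 reads in both of its subsets. In the 9 mice with a ratio, Ly6Clo exceeded Ly6Chi 1.55-fold to 26.4-fold, with a median of 5.44-fold. The fitted difference was -2.46 (SE 0.42, adjusted p = 0.00307 by limma), with all 10 mice lower in Ly6Chi as listed (exact permutation test, two-sided p = 0.00195). In mouse 14 that rests on 0 against 2 reads, which leaves its direction undecided, and without this mouse the difference was -2.57 (adjusted p = 0.00402 by limma). A difference of 1 sign in all 10 mice as listed, lower in Ly6Chi, was found for 1.98% of the tested genes. By size Alox5 ranked 398 of the 593 genes called lower. The call rested on the pairing of libraries by mouse: in limma without the pairing the adjusted p was 0.277, and with 5 mice alone it was 0.429 (vehicle) and 0.0505 (Ac-6-FP) at log2 differences of -2.45 and -2.47.

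Alox5ap (GSMG0030087, chr5:149265004-149288153) encodes FLAP, the membrane protein that hands arachidonic acid to 5-lipoxygenase. In Ly6Chi libraries it stood at 33587, 36395, 39525, 31295 and 33861 in vehicle mice and at 32798, 29089, 29703, 33249 and 25191 in Ac-6-FP mice. In Ly6Clo libraries it stood at 21387, 28966, 23581, 18108 and 17427 in vehicle mice and at 22749, 16543, 23549, 17914 and 20569 in Ac-6-FP mice. Within each mouse the Ly6Chi library was the higher, although the 2 sets of libraries overlapped, since the Ly6Clo value of mouse 12 exceeded the Ly6Chi value of mouse 20. The excess in Ly6Chi was small and even, 1.22-fold to 1.94-fold with a median of 1.62-fold. The fit gave 0.63 (SE 0.07, adjusted p = 0.000136 by limma, exact permutation p = 0.00195, two-sided), and 1.87% of tested genes were likewise higher in Ly6Chi in all 10 mice. Alox5ap ranked 264 of the 303 genes called higher. With 5 mice alone the adjusted p was 0.117 (vehicle, log2 difference 0.69) and 0.0826 (Ac-6-FP, 0.57), both by limma. Alox5ap and Alox5, whose products work as a pair, thus differed in opposite directions between the subsets.

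Lta4h (GSMG0003410, chr10:93453396-93484896), leukotriene A4 hydrolase, makes leukotriene B4, a neutrophil attractant. Its Ly6Chi values were 2800.2, 3981, 1912, 3646 and 1943 in vehicle mice and 2340.0, 3801, 2663, 3138 and 3395 in Ac-6-FP mice. Its Ly6Clo values were 5000.3, 3397, 3978, 2811 and 5211 in vehicle mice and 4852, 5524, 3918.5, 4967 and 6404 in Ac-6-FP mice. In mice 12 and 14 the Ly6Chi library was the higher, in the other 8 the lower. The fit gave -0.64 (SE 0.17) with an adjusted p of 0.0521 by limma, just above the threshold of 0.05, and the exact permutation test gave a two-sided p of 0.0117. It passed in Ac-6-FP mice alone (-0.75, adjusted p = 0.0306 by limma), without the pairing (adjusted p = 0.0183) and in 9 of 23 alternative analyses in all.

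The cyclooxygenases, which make prostaglandin H2, were low and patchy. Ptgs1 (GSMG0020968, chr2:36230425-36252269), the constitutive form, stood at 179, 278, 85.6, 0 and 474 in Ly6Chi libraries of vehicle mice and at 70.6, 48.3, 155, 119 and 308 in those of Ac-6-FP mice. In Ly6Clo libraries it stood at 61.6, 239, 0, 0 and 0 in vehicle mice and at 98.4, 68.4, 139.9, 0 and 97.4 in Ac-6-FP mice. Of the Ly6Clo libraries 4 were thus at 0, against 1 of the Ly6Chi libraries. Its difference of 2.48 (SE 1.05) had an adjusted p of 0.246 by limma. Ptgs2 (GSMG0000873, chr1:150100031-150108234), the inducible form, ranged from 0 to 242 in Ly6Chi and from 0 to 529.65 in Ly6Clo libraries, with a difference of -1.47 (adjusted p = 0.565 by limma). The Ptgs1 and Ptgs2 levels of the subsets overlapped widely, and neither difference was called.

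The synthases downstream of prostaglandin H2 were also without a call. Hpgds (GSMG0033102, chr6:65117293-65144908), the haematopoietic prostaglandin D2 synthase known from mast cells, stood at 211, 0, 290.3, 0 and 114 in Ly6Chi libraries of vehicle mice and at 27.5, 0, 0, 0 and 34.3 in those of Ac-6-FP mice. In Ly6Clo libraries it stood at 555, 4.96, 0, 982 and 228 in vehicle mice and at 310.3, 239, 435, 334 and 277 in Ac-6-FP mice. The Ly6Clo library was the higher in 9 of 10 mice, the exception being mouse 13, whose Ly6Clo library held few genes. The fitted difference was -3.82 (SE 1.51, adjusted p = 0.214 by limma, exact permutation p = 0.0547, two-sided). In vehicle mice alone it was -1.34 (adjusted p = 0.866 by limma) and in Ac-6-FP mice alone -6.30 (adjusted p = 0.0696). Without mouse 13 the adjusted p was 0.0142 by limma at a log2 difference of -5.16. Hpgds was called in 3 of 23 alternative analyses, the others being array weights with all mice (-4.50, adjusted p = 0.0183) and mice 12, 13 and 14 left out (-4.84, adjusted p = 0.0491).

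Ptges (GSMG0022620, chr2:30889471-30903302), the inducible microsomal prostaglandin E synthase, was at 0 in 8 of 20 libraries. It stood at 66.4, 0, 159, 0 and 0 in Ly6Chi libraries of vehicle mice and at 103, 0, 144, 55.0 and 31.3 in those of Ac-6-FP mice. In Ly6Clo libraries it stood at 101, 0, 0, 0 and 214 in vehicle mice and at 54.9, 31.4, 258, 101 and 0 in Ac-6-FP mice, with wide overlap (log2 difference -0.18, adjusted p = 0.952 by limma). Tbxas1 (GSMG0031719, chr6:38875403-39084584), thromboxane A synthase, stood at 871, 0, 668, 153 and 1015 in Ly6Chi libraries of vehicle mice and at 566, 539, 723, 495 and 786 in those of Ac-6-FP mice. In Ly6Clo libraries it stood at 616, 471, 0, 716 and 446 in vehicle mice and at 475, 993, 1382, 329.8 and 929 in Ac-6-FP mice. It was at 0 only in the Ly6Chi library of mouse 12 and the Ly6Clo library of mouse 13 (log2 difference -0.13, adjusted p = 0.968). Hipk2, which overlaps Tbxas1 on the opposite strand, was at most 185 in any library. Pla2g4a (GSMG0002206, chr1:149829621-149961290) was above 0 in all 20 libraries. Its Ly6Chi values were 760.2, 618, 1458, 1756 and 494 in vehicle mice and 871, 1063, 523, 962.5 and 923 in Ac-6-FP mice. Its Ly6Clo values were 1338, 1167, 1945, 412 and 334 in vehicle mice and 1023, 796, 831, 672 and 805 in Ac-6-FP mice. Pla2g4a was higher in Ly6Chi in 5 mice and lower in 5 (log2 difference 0.07, adjusted p = 0.916 by limma). The 95% interval of the Pla2g4a difference ran from -0.56 to 0.71.

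**Figure D2:**
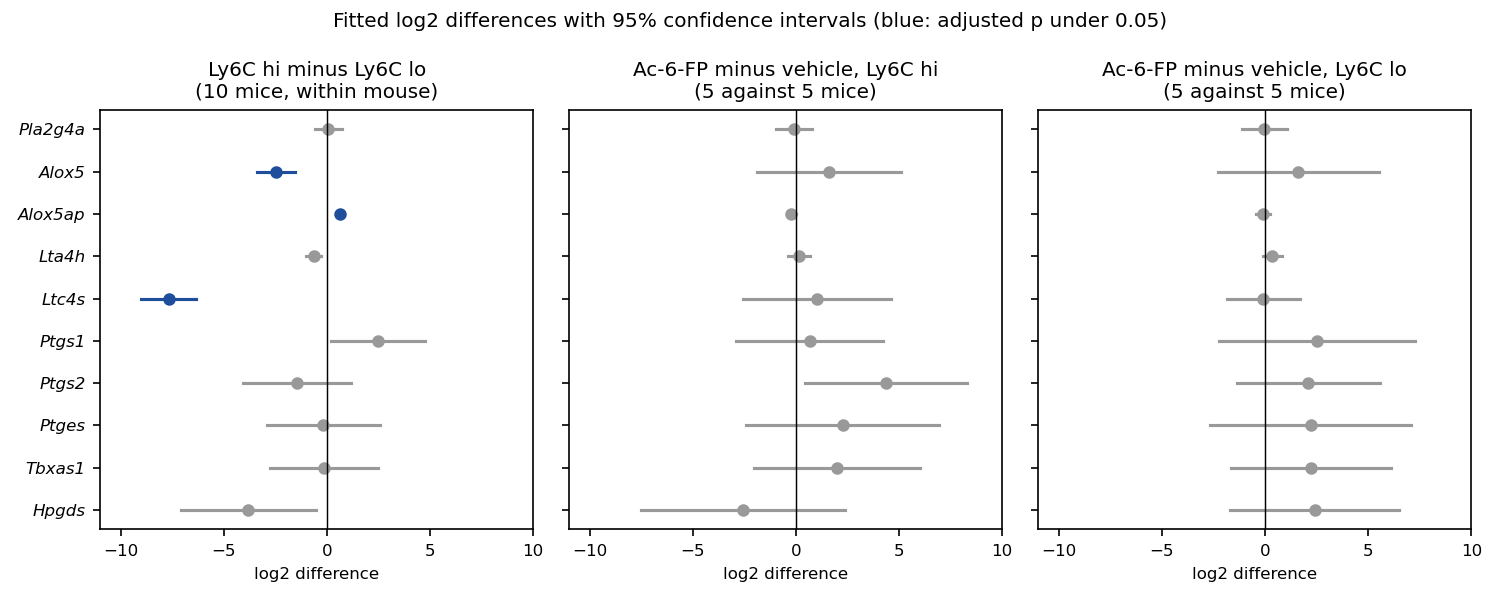
Log2 difference (horizontal axis) of the 10 genes between subsets within mouse (left), and between Ac-6-FP and vehicle mice in Ly6Chi (middle) and Ly6Clo libraries (right), as points with 95% confidence intervals, in blue where the adjusted p was under 0.05. Ltc4s at -7.68, Alox5 at -2.46 and Alox5ap at 0.63 are the blue points, and no point is blue in the treatment panels.

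The Ly6Clo libraries also held transcripts of cells that make leukotrienes or prostaglandin D2 in abundance. The 7 basophil and mast cell markers (Mcpt8, Prss34, Cpa3, Fcer1a, Ms4a2, Cd200r3 and Gata2) summed to 0 in 9 Ly6Chi libraries and to 138 in that of mouse 17, against 2945 to 43066 in Ly6Clo libraries, and all 7 were called lower in Ly6Chi. The 5 eosinophil markers (Siglecf, Prg2, Ccr3, Ear1 and Epx, the last at 0 in all libraries) summed to between 0.88 and 36.1 in Ly6Chi and to between 31.3 and 20458 in Ly6Clo libraries. The 8 neutrophil markers summed to between 3045 and 6851 in Ly6Chi and to between 10371 and 132384 in Ly6Clo libraries. Of them Retnlg, Camp, Ngp and Cxcr2 were called lower in Ly6Chi, whereas S100a8, S100a9, Ly6g and Ltf were not called. The T and NK cell list summed to at most 589 against at least 22013, with the NK cell genes Ncr1, Klrb1c and Nkg7 called and Cd3d not (adjusted p = 0.577 by limma). The dendritic cell list summed to at most 535 against at least 7704, with Flt3, Cd209a and Itgax called and Zbtb46, Xcr1 and Clec9a not. The gate excluded cells with Ly6G, CD11c or CD3 on their surface, so neutrophils, dendritic cells and T cells were to be removed by the sort. It also required CD11b and F4/80, and F4/80 is not a known feature of basophils, mast cells or NK cells, whereas mouse eosinophils carry both. In other lists, Cd79a (B cell, -5.38, adjusted p = 0.00512 by limma), Clec4g (endothelial, -4.17, adjusted p = 0.0145), Apoa1 (hepatocyte, -2.19, adjusted p = 0.0197) and Marco (Kupffer cell, -4.49, adjusted p = 0.0339) were called lower in Ly6Chi too. These sums and the called markers moved in the same direction as Ltc4s, Alox5 and Hpgds, and their part in those differences was not tested.

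Library by library the members and these markers did not share 1 order. The 2 Ly6Clo libraries with the highest Ltc4s, mouse 12 at 3012 and mouse 18 at 2049, had basophil and mast cell sums of 4775 and 3022, whereas mouse 13 with the highest such sum, 43066, had 536 for Ltc4s. The same 2 libraries had neutrophil sums of 61816 and 75854, below that of mouse 20 alone, and eosinophil sums of 13477 and 6835. The only Ly6Chi library with basophil and mast cell reads, that of mouse 17, was at 0 for Ltc4s. Alox5 was highest in the Ly6Clo library of mouse 20, which also had the highest eosinophil sum (20458) and the highest neutrophil sum (132384). In the Ly6Clo library of mouse 13, Alox5 stood at 1488 beside an eosinophil sum of 31.3, and in that of mouse 14 it stood at 1.78 beside an eosinophil sum of 4182. Both libraries had many listed zeros, at 2765 (mouse 13) and 784 (mouse 14) of the 6652 genes with a median of at least 100. In that of mouse 13, 4 of the 5 eosinophil markers were at 0, and the Alox5 value of mouse 14 rests on 2 reads. Listed zeros can thus alter these orders, and the part of such cells was not tested.

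**Figure D3:**
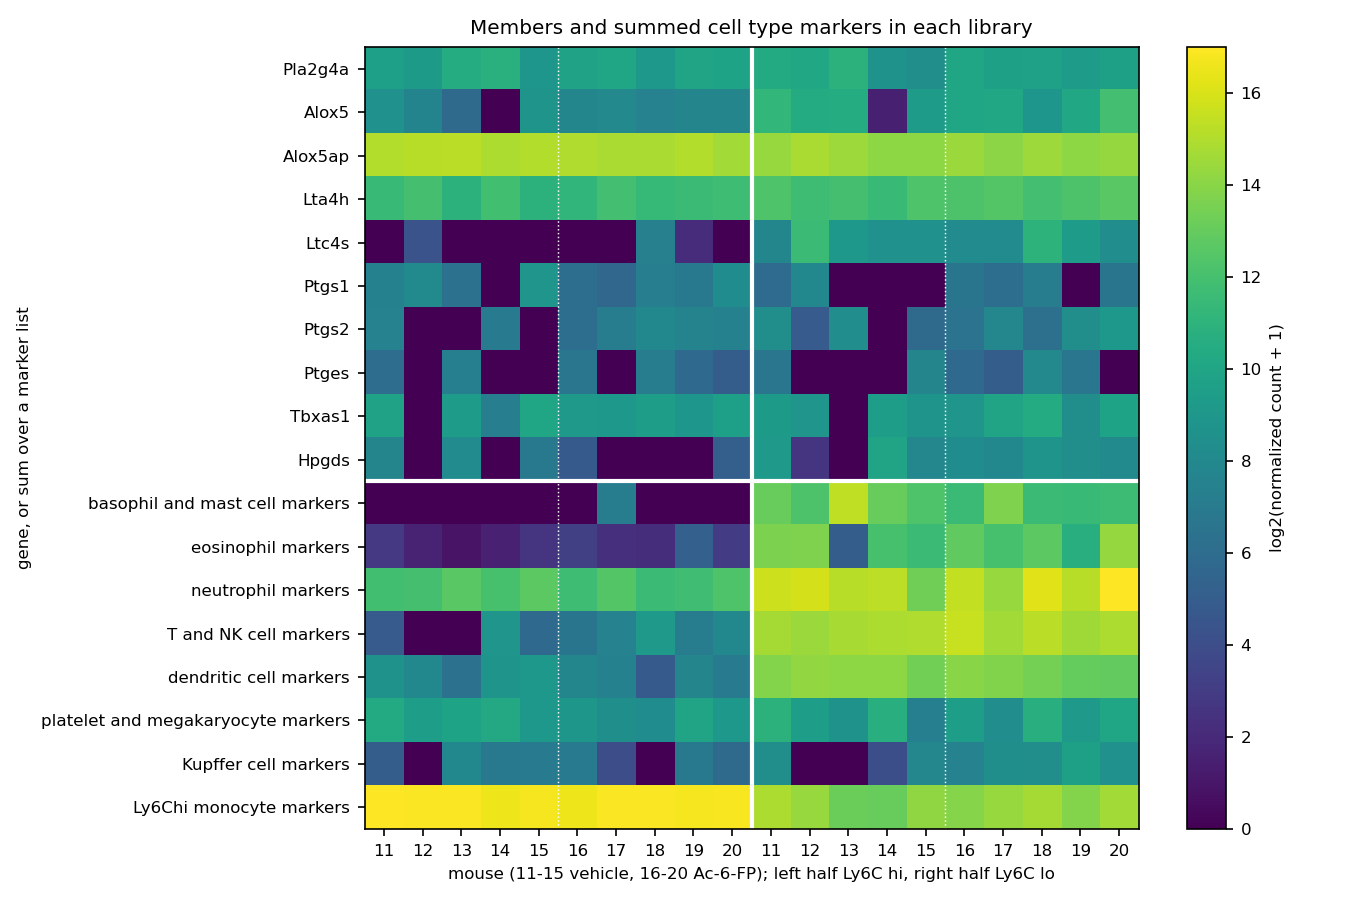
Colour gives log2 of normalized count + 1 for the 10 genes (upper block) and for sums over cell type marker lists (lower block) in each of the 20 libraries, Ly6Chi on the left and Ly6Clo on the right, with mice 11 to 15 (vehicle) before 16 to 20 (Ac-6-FP) in each. Ltc4s is darker in every Ly6Chi than in every Ly6Clo column, as are the basophil and mast cell, T and NK cell and dendritic cell sums, and the eosinophil sum but for the Ly6Clo column of mouse 13 (31.3), whereas Alox5ap is bright throughout.

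Of 62 other eicosanoid genes on a wider list, 60 were in the table and 41 were tested, and 8 of the 41 were called between the subsets, 2 higher and 6 lower in Ly6Chi, where 5.19% of all tested genes were called, 1.76% higher and 3.44% lower. Among phospholipases and arachidonate handling genes, Pla2g7, the secreted enzyme that inactivates platelet-activating factor, ranged from 2127 to 7238 in Ly6Chi and from 12590 to 26686 in Ly6Clo libraries (log2 difference -2.07, SE 0.17, adjusted p = 6.7e-06 by limma). Lpcat3, which loads arachidonate into phospholipids, was lower by a log2 difference of -1.26 (adjusted p = 0.0196), and Anxa1, a glucocorticoid-induced restraint on phospholipase A2, was higher in Ly6Chi at 1.22 (SE 0.13, adjusted p = 6.12e-05), with libraries from 17211 to 36879 against 7209 to 15947. The remaining 8 of 11 tested genes in that group were not called.

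Among other synthases and lipoxygenases, Alox15, the 12/15-lipoxygenase, showed the widest gap. It ranged from 0 to 264 (median 1.07) in Ly6Chi and from 1014 to 20089 (median 4987) in Ly6Clo libraries, at -9.58 (SE 0.93, adjusted p = 3.15e-05 by limma), and its highest value fell in the Ly6Clo library of mouse 20, where Alox5 and the eosinophil sum were highest too. Mgst1, a microsomal glutathione transferase related to Ltc4s and Ptges, went the other way, from 13298 to 21078 in Ly6Chi and from 1570 to 4364 in Ly6Clo libraries (2.74, SE 0.13, adjusted p = 3.63e-08). Ptges3, a cytosolic prostaglandin E synthase and HSP90 co-chaperone, was slightly lower in Ly6Chi (-0.33, adjusted p = 0.0329).

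Downstream of the members, Dpep2, which converts leukotriene D4 to E4, stood at 595 to 1890.4 in Ly6Chi and 2257 to 11525 in Ly6Clo libraries (-2.15, SE 0.24, adjusted p = 0.000136 by limma). Cyp4f18, which breaks down leukotriene B4, stood at 9940.3 to 19409 against 21348 to 50146 (-1.24, SE 0.15, adjusted p = 0.000202). Ltc4s and Dpep2, which act in 1 route, were thus both lower in Ly6Chi in all 10 mice. Mgst2 and Mgst3, further glutathione transferases on the list, were higher in Ly6Chi in 10 and 9 mice. Neither was called (2.85 and 1.25, adjusted p = 0.104 and 0.0522 by limma), and both were named after their values were seen. Of 16 receptors listed, 9 were tested and 0 called by limma, with 2 at an unadjusted p under 0.05. Those 2, named after their values were seen, were the leukotriene receptor Cysltr2 (-3.41, adjusted p = 0.202 by limma, lower in Ly6Chi in 9 mice) and the prostacyclin receptor Ptgir (2.19, adjusted p = 0.237, higher in 7 mice).

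**Figure D4:**
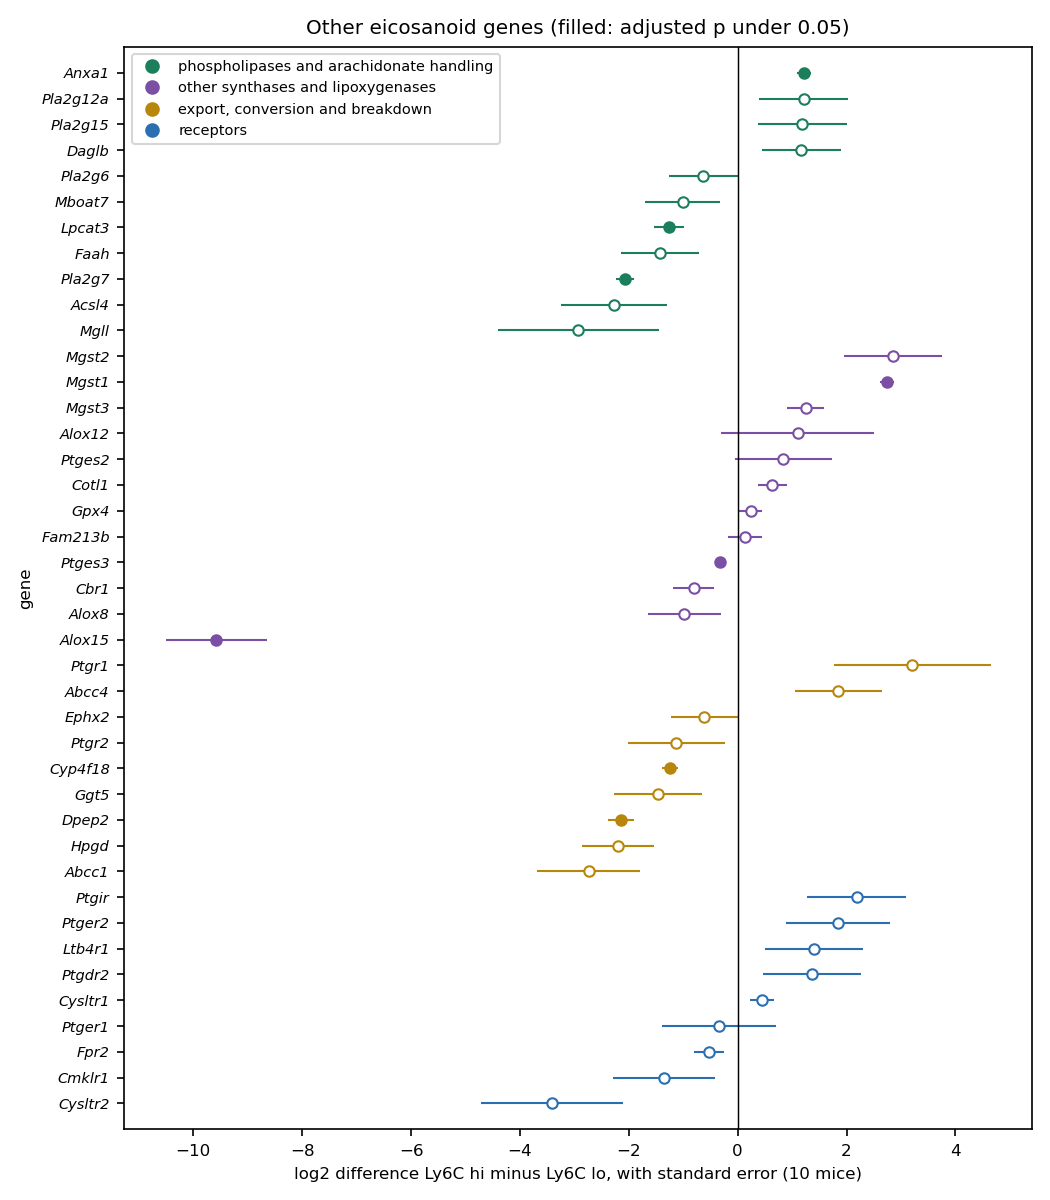
Log2 difference between Ly6Chi and Ly6Clo libraries (horizontal axis, bars show the standard error, 10 mice) for the 41 other eicosanoid genes tested, coloured by their place in the pathway, with filled points where the adjusted p was under 0.05. Alox15 at -9.58 lies farthest to the left and the filled points to the right are Anxa1 and Mgst1.

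Under Ac-6-FP, 0 of the 10 members passed the test in either subset by limma or by edgeR. In limma 13 genes (0.0754%) were called in Ly6Chi and 9 (0.0522%) in Ly6Clo libraries, and edgeR on the recovered reads called 0 genes in each, so the comparison had few calls of any kind. At an unadjusted p under 0.05, 2 members stood out in Ly6Chi (Ptgs2 and Alox5ap) and 0 in Ly6Clo, beside 8.73% and 9.31% of all genes. The median log2 difference of the members was 0.85 in Ly6Chi, beside 0.35 over all genes, and 1.86 in Ly6Clo, beside 0.91. These medians turned on single mice. Without mouse 14 the members stood below all genes in both subsets, at 0.20 beside 0.30 in Ly6Chi and at 0.48 beside 0.81 in Ly6Clo. Without mouse 18 the Ly6Chi values were 0.37 and 0.42, without mouse 13 the Ly6Clo values were 0.66 and 0.35, and without mice 12, 13 and 14 they were 0.18 and 0.00, with 0.10 and 0.00 in Ly6Chi. Without those 3 mice the calls over all genes also went the other way, 1 higher and 15 lower in Ly6Chi against 11 and 2 with all mice, and 2 higher and 48 lower in Ly6Clo against 9 and 0, again with 0 members called. Detection differed between the treatment groups as well: a median of 9749 genes was above 0 in vehicle and 13622 in Ac-6-FP Ly6Chi libraries, and 10379 and 14084 in Ly6Clo libraries. Between 1 and 5 members (median 3) were at 0 in a vehicle Ly6Chi library, and between 1 and 3 (median 1) in an Ac-6-FP one. With the number of detected genes in the model, the median over the members was 0.18 in Ly6Chi, beside 0.01 over all genes, and 0.44 in Ly6Clo, beside 0.06, and again 0 members were called. Detection and treatment are confounded here, so this fit cannot tell their parts apart. A cause of the higher medians under Ac-6-FP was not tested.

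Ptgs2 in Ly6Chi libraries was 186, 0, 0, 119.9 and 0 in vehicle mice and 68.1, 149.8, 242, 192.5 and 173 in Ac-6-FP mice. The zeros were those of mice 12, 13 and 15, and the vehicle mice with reads lay within the range of the Ac-6-FP mice. The fit gave 4.37 (SE 1.74, 95% interval 0.42 to 8.31, unadjusted p = 0.0336, adjusted p = 0.543 by limma), and the exact permutation test gave a two-sided p of 0.0714, where 5 against 5 can reach 0.00794. In Ly6Clo libraries Ptgs2 was 344, 28.5, 319, 0 and 56.7 in vehicle mice and 86.1, 229.95, 75.3, 332 and 529.65 in Ac-6-FP mice, with overlapping groups (2.10, adjusted p = 0.613 by limma).

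Alox5ap in Ly6Chi was at a log2 difference of -0.22 under Ac-6-FP (SE 0.10, adjusted p = 0.564 by limma, exact permutation p = 0.0397, two-sided). Vehicle values ran from 31295 to 39525 and Ac-6-FP values from 25191 to 33249, so the groups overlapped. In Ly6Clo the difference was -0.10 (adjusted p = 0.78), with a 95% interval from -0.46 to 0.26. Alox5ap, Lta4h and Pla2g4a, read in all 20 libraries, gave the narrowest treatment intervals: that of Lta4h was -0.40 to 0.70 in Ly6Chi and -0.11 to 0.81 in Ly6Clo, and that of Pla2g4a was -0.95 to 0.76 and -1.13 to 1.06.

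For the other members the intervals were too wide to place a change. Ltc4s differed by -0.10 in Ly6Clo (95% interval -1.87 to 1.68, adjusted p = 0.986 by limma) and Alox5 by 1.62 (-2.28 to 5.52, adjusted p = 0.657), a value that rested on mouse 14 and was -0.17 without it. In Ly6Chi, Ltc4s differed by 1.04 (-2.55 to 4.63, adjusted p = 0.851) and Alox5 by 1.60 (-1.90 to 5.10, adjusted p = 0.697). That Alox5 value ran from 0.05 to 2.25 with each mouse left out in turn. Hpgds differed by -2.56 in Ly6Chi (adjusted p = 0.687) and by 2.4 in Ly6Clo (adjusted p = 0.613). The Ac-6-FP minus vehicle differences of Ptgs1, Ptges and Tbxas1 lay between 0.66 and 2.53 in both subsets, with adjusted p from 0.613 to 0.951. Tbxas1 ran from 0.16 to 2.66 in Ly6Chi and from 0.39 to 2.76 in Ly6Clo with each mouse left out in turn.

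The test of whether the Ac-6-FP difference itself varied between the subsets called 0 of 17248 genes by limma (0.0%), with 840 (4.87%) and 0 members at an unadjusted p under 0.05, and 0 by edgeR. The members nearest to a difference were Hpgds (-4.96, SE 2.80, adjusted p = 0.83 by limma) and Ptgs2 (2.27, SE 2.43, adjusted p = 0.834). When each Ac-6-FP library was instead set against the vehicle mean taken as a fixed value, the centring that the study used, 2851 genes passed an adjusted p under 0.05 in limma, among them Hpgds (adjusted p = 0.046 by limma) and Ptgs2 (adjusted p = 0.0467). That centring leaves out the spread among vehicle mice, and the study's own test and thresholds were not applied here. Among the 41 other eicosanoid genes, 0 were called under Ac-6-FP in either subset by limma, with 6 in Ly6Chi and 5 in Ly6Clo at an unadjusted p under 0.05, beside 8.73% and 9.31% of all genes.

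The genes whose level followed a member most closely over the 20 libraries were sought among 6961 genes, for the 5 members with at most 2 libraries at 0, by Pearson's r on the log2 scale. Alox5ap went with Anxa1 (r = 0.936), Fcgr3 (0.927) and Ostc (0.918). Alox5 went with Antxr2 (0.919), Ifit2 (0.843) and Nae1 (0.824). Lta4h went with Lair1 (0.814), Thy1 (0.812) and Ccl4 (0.81), Pla2g4a with BC005537 (0.776), and Tbxas1 with Gart (0.981), each of these over the same 20 libraries. The libraries come in pairs from 10 mice and share depth and zeros, so these values only describe the table.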

How the data were processed

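RNA of sorted Ly6Chi and Ly6Clo MoMacs from 10 CCl4-treated mice was sequenced as 75-base reads. Per the labels and the study's methods, the authors aligned reads with STAR 2.4.0 to mm10, counted them on constitutive regions of FAST DB genes and deposited size-factor normalized counts (signal, not raw counts, 2 decimals). From their steps, whole reads were recovered for 100.0% of values within 0.006 of a whole number. Antisense genes are from GENCODE and promoters from RefSeq. Coordinates are those deposited, on mm10.

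Genes with a mean of at least 10 normalized counts in at least 1 of 4 groups were kept (17248; 60.5% of the table's genes were without a symbol). limma 3.58.1 (R 4.3.3) was fitted on log2(value + 1): subsets with mouse as block, treatment within each subset, and the difference of both, with Benjamini-Hochberg adjustment over all tested genes. Exact permutation tests over mice, two-sided, were added for the members (numpy 2.4.6). The pairing comes from the animal. Residuals of the same mouse correlated at a median of 0.0338 (0.00334 to 0.25), against -0.00319 for different mice.

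Named were all members and the called genes of the wider list, with exceptions marked in the text. edgeR 4.0.16 on recovered reads, other pseudocounts (0.1, 10) and filters (none, 100), quantile normalization, array weights, genes detected as covariate and leaving out each mouse were tried. Scripts were tested on simulated data. Whether the mice were separate cages or sorted on separate days is not given in the sources used here. The members and gene lists were chosen with earlier results of these data known.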

Additional observations from a re-analysis of the deposited data

Results flagged for a closer look

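Within the 40 groups of 5 libraries (10 genes in 4 groups), 7 had 1 library whose gap to the nearest on the log2(normalized count + 1) scale exceeded Dixon's 95% value of 0.71 of the group's range. That value assumes normally distributed values, which groups with listed zeros do not have, so no rate by chance is set beside the 7. At the low end were Pla2g4a at 523 in the Ly6Chi library of mouse 18 (Ac-6-FP), Alox5 at 1.78 in the Ly6Clo library of mouse 14 (vehicle), and 4 values at 0, namely Ptgs1 in the Ly6Chi library of mouse 14 and the Ly6Clo library of mouse 19, and Tbxas1 in the Ly6Chi library of mouse 12 and the Ly6Clo library of mouse 13. At the high end was Ltc4s at 19.3 in the Ly6Chi library of mouse 12, where the other vehicle libraries were at 0. By limma's interaction test 0 members were called for a difference of the Ac-6-FP change between subsets.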

How the results depend on the processing

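Ltc4s, lower in Ly6Chi, was called in all 23 alternative analyses (log2 difference -10.05 to -5.17, adjusted p 5.87e-07 to 0.0233), Alox5 in 20 and Alox5ap in 21. The exceptions were 5 mice alone and, for Alox5, the fit with no replicate block. Ptgs1, Ptgs2, Ptges, Tbxas1 and Hpgds were at 0 in 2 to 8 of 20 libraries each. With mice 12, 13 and 14 left out and with edgeR without mouse 15, both chosen after seeing the data, no member was called under Ac-6-FP. The cause of the shifts below was not tested.

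Between subsets 896 genes were called (303 higher and 593 lower), and 545 in Ac-6-FP mice alone, 79 in vehicle mice alone (15 higher and 64 lower), 1108 after quantile normalization (491 higher and 617 lower), 1509 with array weights, 584 by edgeR, 467 by edgeR without mouse 15, and 1702 with detected genes as a covariate (979 higher and 723 lower). With no replicate block, so libraries not paired by mouse, 952 were called, and with each mouse left out in turn 642 to 1162. For Ac-6-FP in Ly6Chi, 13 genes became 0 by edgeR, 0 by edgeR without mouse 15, 4 (all higher) with the filter at 100, 16 (1 higher, 15 lower) without mice 12, 13 and 14, 0 with the detection covariate, 5 with no filter and 0 after quantile normalization, and 0 to 133 with each mouse left out (133 without mouse 11). In Ly6Clo, 9 genes became 0 by edgeR, 0 by edgeR without mouse 15, 2 with the filter at 100, 2 with the detection covariate, 50 (2 higher, 48 lower) without mice 12, 13 and 14, 2 with no filter, 2 at a pseudocount of 10 and 0 after quantile normalization, and 0 to 103 with each mouse left out (103 without mouse 11). For the subset difference of the Ac-6-FP change, 0 genes became 2 with the filter at 100, 3 with no replicate block, 1 after quantile normalization and 2851 with the vehicle mean fixed, and 0 to 4 with each mouse left out.

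Changes of sign were seen only for values that were not called. Between subsets, the sign turned with edgeR without mouse 15 for Ptges (0.41). With the detection covariate it turned for Ptges (0.47) and Tbxas1 (0.48). With mice 12, 13 and 14 left out it turned for Pla2g4a (0.00) and Tbxas1 (0.07). With each mouse left out in turn, the values ran from -0.15 to 0.18 for Pla2g4a, from -1.02 to 0.66 for Ptges and from -1.18 to 0.85 for Tbxas1. For Ac-6-FP in Ly6Chi, the sign turned with array weights for Pla2g4a (0.03). With edgeR it turned for Ptgs1 (-0.53). With edgeR without mouse 15 it turned for Lta4h (-0.01). With the detection covariate it turned for Ptgs1 (-0.40). With mice 12, 13 and 14 left out it turned for Pla2g4a (0.46), Alox5 (-0.90), Ptgs1 (-1.34) and Tbxas1 (-0.62). With each mouse left out in turn, the values ran from -0.31 to 0.15 for Pla2g4a, from -0.33 to 1.91 for Ltc4s and from -0.89 to 1.34 for Ptgs1. For Ac-6-FP in Ly6Clo, the sign turned with array weights for Pla2g4a (0.21). With edgeR it turned for Hpgds (-0.21). With edgeR without mouse 15 it turned for Hpgds (-0.34). With the detection covariate it turned for Pla2g4a (0.23) and Ltc4s (0.47). With mice 12, 13 and 14 left out it turned for Pla2g4a (0.29), Alox5 (-0.08), Alox5ap (0.06), Lta4h (-0.01), Ltc4s (0.83), Ptges (-2.11) and Hpgds (-0.18). With each mouse left out in turn, the values ran from -0.37 to 0.26 for Pla2g4a, from -0.17 to 2.28 for Alox5, from -0.18 to 0.01 for Alox5ap and from -0.59 to 0.51 for Ltc4s. For the subset difference of the Ac-6-FP change, the sign turned with array weights for Pla2g4a (0.19) and Tbxas1 (0.72). With edgeR it turned for Pla2g4a (0.04) and Alox5 (0.36). With edgeR without mouse 15 it turned for Pla2g4a (0.16), Alox5 (0.96), Ptges (-2.17) and Tbxas1 (0.67). With the detection covariate it turned for Tbxas1 (0.48). With mice 12, 13 and 14 left out it turned for Pla2g4a (0.17) and Lta4h (0.38). With a pseudocount of 0.1 it turned for Alox5 (0.53). With quantile normalization it turned for Alox5 (0.14) and Tbxas1 (0.21). With each mouse left out in turn, the values ran from -0.31 to 0.44 for Pla2g4a, from -0.58 to 0.43 for Alox5, from -0.42 to 0.03 for Lta4h, from -1.84 to 1.92 for Ptges and from -2.45 to 2.11 for Tbxas1.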
